A study of Danio rerio with 4 samples.

Results

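Solute carriers are membrane proteins that move nutrients, transmitters, metabolites and ions across the plasma membrane and across the membranes of organelles. Their genes were taken by symbol, as every probe set whose platform annotation gave 1 gene symbol that opens with slc and a family number, except slc4a1a. In all, 157 probe sets met this rule, and they covered 136 of the 8793 genes with 1 symbol on the array. Each gene was represented by its probe set with the highest mean log2 signal over the arrays. A filter on low signal, described with the processing, kept 83 of the 136 genes for testing, among 9301 probe sets in all.

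Adult zebrafish (Danio rerio) were kept at 28°C (normal) or cooled stepwise to 10°C and held there for 10 days (cold). Brain RNA from pooled fish of both sexes was measured on Affymetrix Zebrafish Genome Arrays, which use 1 colour, and 4 arrays were analysed, 2 per condition. The sources used here give neither the strain, an age beyond adult nor the number of brains in a pool. The study's methods describe separate acclimation experiments, but the labels do not say whether a sample number marks one. Each array carries its label and sample number (normal 1, cold 1, normal 2, cold 2), and the pair with a common number is called a set. Signals below are the deposited linear intensities, always given in that order of arrays, and a log2 ratio is the array labelled cold over the array labelled normal of the same set.

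In the brain, carriers of the slc1 and slc6 families clear transmitters from the synaptic space, whereas slc17, slc18 and slc32 carriers load them into vesicles. Amino acid, glucose and monocarboxylate carriers feed neurons and glia, and cation-chloride cotransporters and exchangers set ion gradients and pH. The slc25 family sits mostly in the inner mitochondrial membrane and links the cytosol with oxidative metabolism. Carriers driven by sodium depend on the sodium-potassium ATPase.

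The arrays did not group by label at these genes. The normal arrays lay at least 2-fold apart at 18 of the 83 tested carrier genes (21.7%, against 15.2% of all probe sets tested), and the cold arrays did so at 14 (16.9%, against 11.9%). Between labels, normal 2 and cold 1 were that far apart at 0 of 83 genes (against 2.80% of all probe sets) and normal 1 and cold 2 at 5 (6.02%, against 7.26%). These 5 were slc1a2b, slc1a4, slc7a3a, slc25a12 and slc37a4b, each higher on cold 2. These pairs with different labels were thus closer than the pairs with the same label. In set 1, 6 genes were that much higher on the cold array and 4 lower (7.23% and 4.82%, against 8.79% and 5.13%). In set 2 they were 8 and 2 (9.64% and 2.41%, against 2.23% and 4.0%). Labels were kept as given and their correctness was not tested, so each direction below holds only as far as the labels do, and the ratios of a set would turn sign if its labels were exchanged.

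Marker genes of brain cell types and of other tissues also differed between arrays. The summed signal of 13 red blood cell genes was 15741, 22143, 23593 and 14079.9, that of 10 neuronal genes 26496, 36245, 34107 and 30100.4, and that of 6 astroglial genes 12216, 17381, 15810.1 and 12661. Red cell and neuronal sums were thus highest on the arrays normal 2 and cold 1. The 7 microglial genes summed to 3742, 2445, 3111 and 3887, and 14 skeletal muscle genes to 1803, 6186, 1896 and 1933, highest on cold 1. Sums for oligodendrocytes (5 genes) ran from 9999 to 13369.6, and for skin (8 genes) from 2173 to 3483. For endothelium (4 genes) they ran from 278 to 459, and for photoreceptors and pineal (13 genes) from 769 to 1059. All sums hold every listed gene on the array, also those below the filter. Only 1 of the endothelial and 3 of the photoreceptor and pineal genes passed it. Neuronal markers such as elavl3, snap25a and syt1a and glial markers such as gfap passed the filter, so defining markers of the labelled tissue were present. The part of cell mixture in any carrier value was not tested, and in bulk RNA fewer cells of a type cannot be told apart from less RNA per cell.

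With the labels as given, 0 of 83 carrier genes were higher and 0 lower in cold at an adjusted p under 0.05 from limma (0.00% of all probe sets in either direction). At an unadjusted p under 0.05 the fit held 0 of the 83 genes, against 0.495% of all probe sets, and the smallest unadjusted p was 0.13 from limma. With no difference between labels and the assumptions of the fit met, a share of about 0.05 would be expected. The labelled fit gave fewer low p-values than that. Fitted log2 fold changes of carriers reached at most 0.64 in size, with standard errors between 0.25 and 0.91. Their median was 0.05, beside 0.04 over all probe sets tested. These standard errors are moderated, which means that they draw on the spread of all probe sets of similar signal. The spread between arrays of a label enters them. Normal arrays lay at least 2-fold apart at 15.2% of all probe sets and cold arrays at 11.9%. For normal 2 with cold 1 the share was 2.80%, and for normal 1 with cold 2 it was 7.26%.

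The log2 ratios of the sets had opposite signs at 54 of the 83 genes, and at most of all probe sets as well. The labelled log2 fold change is the mean of the set ratios, so opposite ratios cancel in it. In set 1, 6 of 83 genes were at least 2-fold higher on the cold array (7.23%, against 8.79% of all probe sets) and 4 at least 2-fold lower (4.82%, against 5.13%). In set 2, 8 were at least 2-fold higher (9.64%, against 2.23%) and 2 at least 2-fold lower (2.41%, against 4.0%). Lower signal in set 1 with higher signal in set 2 was found at 30 genes (36.1%, against 32.8%), and the reverse at 24 (28.9%, against 36.8%). Signals were higher on the cold array of both sets at 18 genes (21.7%, against 17.4%) and lower in both at 11 (13.3%, against 13.0%). Over the 83 genes (genes are no independent replicates) the log2 ratios of the sets had a Pearson's r of -0.76 and a Spearman's rho of -0.69. Over all 9301 probe sets these were -0.63 and -0.59, and the points share the 4 arrays. With a single array per condition in each set, these ratios have no replicate check.

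**Figure D1:**
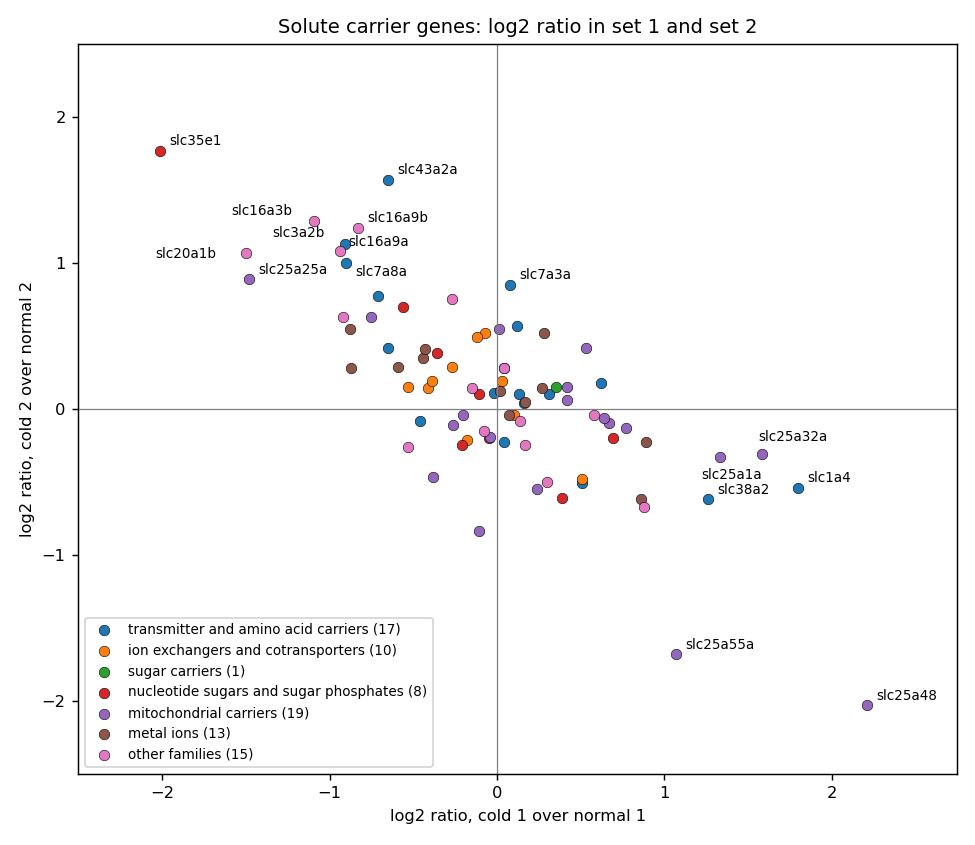
Log2 ratio of cold 1 over normal 1 (x axis) against that of cold 2 over normal 2 (y axis) for the 83 tested carrier genes, 1 point per gene, coloured by functional group with the number of genes in brackets. Most genes with large ratios lie at the upper left or lower right, from slc35e1 at -2.01 and 1.77 to slc25a48 at 2.21 and -2.03.

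The 8 genes that reached 2-fold on cold 2 over normal 2 were slc3a2b, slc7a8a and slc43a2a of amino acid transport, slc16a3b, slc16a9a and slc16a9b of the monocarboxylate family, the phosphate carrier gene slc20a1b, and slc35e1. Each of them was lower on cold 1 than on normal 1, and all but slc43a2a were among the genes named for opposite ratios. The set ratios were opposed over all probe sets too (Pearson's r -0.63). How many other probe sets at 2-fold in set 2 were lower in set 1 was not counted. Their signals are given with their groups below.

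Transmitter and amino acid carriers held 28 genes, of which 17 were tested. The median log2 ratios of sets 1 and 2 were 0.08 and 0.11, against 0.06 and 0.00 over all probe sets. In set 1, 2 genes were at least 2-fold higher (11.8%, against 8.79% of all probe sets) and 0 lower (against 5.13%). In set 2, 3 were higher (17.6%, against 2.23%) and 0 lower (against 4.0%). In the labelled fit the median log2 fold change was 0.11, and it was 0.29 without cold 1 and 0.02 without cold 2.

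Glutamate uptake was represented by slc1a2b, which encodes the transporter EAAT2 that clears glutamate from synapses. Its signals were 2765, 4250.4, 5639.8 and 6377. The cold array was higher in both sets, by 1.54-fold and 1.13-fold, but normal 2 was also above cold 1, so the groups overlapped. The log2 fold change was 0.40 with a standard error of 0.38 (limma adjusted p = 1), and it was -0.12 without normal 1. The gene slc1a3a, for the glial transporter EAAT1, had signals of 88.3, 96.5, 102 and 109.8, or 1.09-fold and 1.07-fold. Astroglial markers had median log2 ratios of 0.49 and -0.38, with the opposite sign in set 2 to slc1a2b and slc1a3a. Their part was not tested. The neutral amino acid carrier gene slc1a4, which encodes ASCT1, had signals of 130.3, 454, 412 and 283. Normal 1 was the low array there, with 3.49-fold in set 1 and 0.687-fold in set 2, and the log2 fold change of 0.63 (SE 0.61, limma adjusted p = 1) became -0.20 without that array.

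Vesicular carriers differed by less than 2-fold within a set. The gene slc32a1 encodes the carrier that loads GABA and glycine into vesicles, and its signals were 644, 919, 1019.8 and 718. Set 1 was higher by a log2 ratio of 0.51 and set 2 lower by the same size (-0.51), which left a labelled log2 fold change of 0.00. The vesicular acetylcholine carrier gene slc18a3a had signals of 185, 230.3, 234 and 250.1. For slc6a17, which encodes a carrier of neutral amino acids in synaptic vesicles, the signals were 1416, 1536, 1185 and 1759. Both cold arrays were above both normal arrays at slc6a17, although the difference from normal 1 to cold 1 was only 1.08-fold (log2 ratio 0.12). The labelled fit gave a log2 fold change of 0.34 ± 0.34 (SE, limma adjusted p = 1). The dopamine transporter gene slc6a3 lay below the filter, with signals between 53.9 and 70.8.

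The genes slc3a2b, slc7a8a and slc43a2a, for carriers of large neutral amino acids, were opposed between sets. The genes slc3a2b and slc7a8a were named for their opposite ratios, and slc43a2a was picked with its values in view. Their opposition therefore follows from the choice. Lower in set 1 and higher in set 2 were 35.3% of the tested transmitter and amino acid carriers, against 32.8% of all probe sets. The heavy chain gene slc3a2b, whose product (CD98 heavy chain) brings light chains of the slc7 family to the membrane, had signals of 832, 443, 272 and 595. The light chain gene slc7a8a (LAT2) had 382, 206, 234 and 467, and a further probe set of the gene had 192, 109, 102 and 152. At slc43a2a, for the facilitative carrier LAT4, the signals were 278, 177, 150.3 and 446. All were lower on the cold array of set 1 (0.532-fold, 0.538-fold and 0.636-fold) and higher on that of set 2 (2.19-fold, 2.0-fold and 2.97-fold). The paralogue slc3a2a did not follow slc3a2b, with signals of 279, 287, 249 and 212. Microglial markers had the same signs, with medians of -0.47 in set 1 and 0.32 in set 2, and their part was not tested.

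Other genes of the group differed in course. The glutamine carrier gene slc38a2 (SNAT2) had signals of 471, 1129, 1215 and 788, which is 2.39-fold in set 1 and 0.649-fold in set 2. Neuronal and astroglial marker lists had medians of that sign, 0.44 and 0.49 in set 1 and -0.18 and -0.38 in set 2. Red blood cell, oligodendrocyte and endothelial markers had those signs too, and the part of any list was not tested. The lysosomal sialic acid carrier gene slc17a5 had 237, 145, 148 and 252, with the signs of slc3a2b. The cationic amino acid carrier gene slc7a3a had 517, 545, 592 and 1064, so that cold 2 alone stood high, and slc7a1b had 150.0, 168, 186 and 192. Both signs of slc3a2b were also seen at slc38a4, an amino acid carrier gene with 106, 67.2, 115 and 154. The symbol slc7a6os, with signals of 1279, 933, 715 and 675, marks a gene named for its position opposite a carrier gene and not a carrier.

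**Figure D2:**
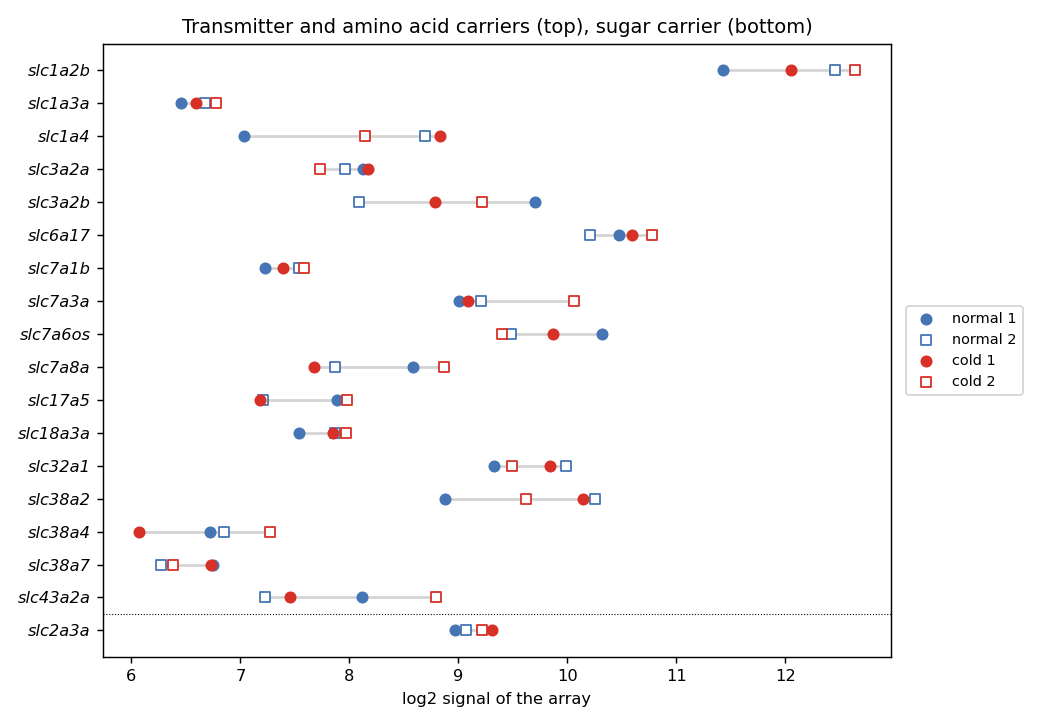
Log2 signal (x axis) of the 17 tested transmitter and amino acid carriers and of the sugar carrier slc2a3a (bottom row), 1 row per gene and 1 symbol per array, blue for normal and red for cold, filled circles for set 1 and open squares for set 2. Both cold arrays lie above both normal arrays at slc6a17 and slc2a3a, and at the other rows the labels overlap.

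Sugar carriers were mostly dim. Of 9 genes, 8 lay below the filter, including slc5a8l, whose name points to a monocarboxylate carrier, and slc2a2, which encodes the glucose transporter GLUT2 of liver and pancreas, with signals between 1.56 and 3.13. The remaining gene was slc2a3a, for the neuronal glucose transporter GLUT3. Its signals were 499.7, 636, 536 and 596. Both cold arrays were above both normal arrays, by 1.27-fold in set 1 and 1.11-fold in set 2. Over both labels' arrays the log2 fold change came to 0.25 ± 0.39 (SE, limma adjusted p = 1). Arrays of a label lay closer together than that at slc2a3a, with log2 signals of 8.97 and 9.07 for normal and 9.31 and 9.22 for cold. Hexokinase 1 (hk1), which traps the imported glucose, had signals of 1347, 1739.6, 1543 and 1911, likewise without overlap. Hexokinase 2 (hk2) had 119.8, 80.2, 92.4 and 105, with overlap and a lower cold array in set 1. Both cold arrays were above both normal arrays at 9.20% of all probe sets tested.

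Carriers of nucleotide sugars and sugar phosphates serve the Golgi and the endoplasmic reticulum. Of their 11 genes 8 were tested, with median log2 ratios of -0.16 in set 1 and -0.05 in set 2. The gene slc35e1, whose substrate is not established, had signals of 226, 56.2, 48.1 and 164. It was 0.249-fold in set 1 and 3.41-fold in set 2, and its low arrays lay under the mean signal of 74.5 at the filter. The gene slc35a4 had the same signs, with 217, 148, 161 and 262, whereas slc35b2, which imports the sulfate donor PAPS into the Golgi, had 106, 139, 228 and 149.6. For slc35f6 the signals were 495, 429, 410.3 and 345, lower on the cold array of both sets (log2 fold change -0.23, SE 0.40, limma adjusted p = 1). A further probe set of slc35f6 had 135, 149, 100.1 and 101 and did not share that order. The glucose 6-phosphate carrier gene slc37a4b had 91.9, 148, 219 and 191, and slc37a2 had 173, 160.5, 149 and 160.2.

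Mitochondrial carriers of the slc25 family held 25 genes, of which 19 were tested. In set 1 their log2 ratios had a median of 0.42 and in set 2 of -0.11, and 8 of 19 were higher in set 1 and lower in set 2 (42.1%, against 36.8% of all probe sets). In set 1, 4 were at least 2-fold higher (21.1%, against 8.79%) and 1 lower (5.26%, against 5.13%). In set 2, 0 were higher (against 2.23%) and 2 lower (10.5%, against 4.0%). The labelled median was 0.09, and it was 0.42 without normal 2 and 0.00 without normal 1. Transmitter and amino acid carriers, by comparison, had a median of 0.08 in set 1, ion exchangers of -0.15, and no test of these differences was made since genes are not replicates.

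**Figure D3:**
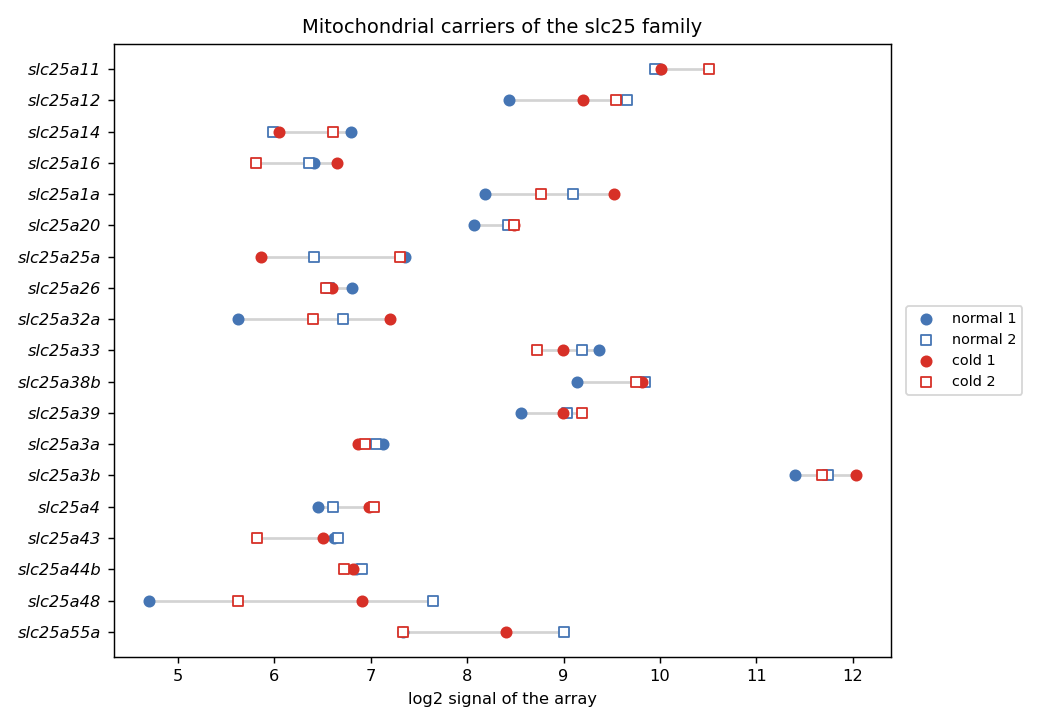
Log2 signal (x axis) of the 19 tested slc25 genes, 1 row per gene and 1 symbol per array, blue for normal and red for cold, filled circles for set 1 and open squares for set 2. The widest rows are slc25a48 and slc25a55a, where normal 2 is the highest array, while slc25a4 has both cold arrays above both normal arrays.

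The widest differences in this family were at slc25a48 and slc25a55a. Signals of slc25a48 were 26, 120.2, 201 and 49.3, so the arrays normal 1 and cold 2 lay under the mean signal at the filter. Its 4.63-fold in set 1 and 0.245-fold in set 2 therefore rest on low signals. At slc25a55a they were 161, 338, 515 and 161, or 2.1-fold and 0.312-fold. Red blood cell markers had the same signs (median log2 ratios 0.50 and -0.76). So had neuronal, astroglial, oligodendrocyte and endothelial markers, the last with 1 tested gene. The part of any of these lists was not tested. The citrate carrier gene slc25a1a, which exports acetyl units for fatty acid synthesis, had 292, 734, 550.4 and 437. The gene slc25a32a, for a carrier of folate or FAD, had 49.1, 147, 104 and 84.2, with normal 1 lowest and under the mean signal at the filter. The labelled fit gave a log2 fold change of 0.64 ± 0.45 (SE, limma adjusted p = 1). That value, the highest among the tested carriers, was 0.09 without normal 1, 0.23 without cold 1 and 1.18 without normal 2. In the reverse direction, slc25a25a of the ATP-Mg/phosphate carriers had 163, 58.3, 84.8 and 158, with cold 1 under the mean signal at the filter.

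The next slc25 genes, grouped with their values in view, differed by less than 2-fold within a set. The normal arrays were nevertheless 2.35-fold apart at slc25a12. The phosphate carrier gene slc25a3b, which supplies phosphate for ATP synthesis, had signals of 2696, 4190.3, 3416 and 3281. It was 1.55-fold in set 1 and 0.960-fold in set 2 (log2 fold change 0.29, SE 0.27, limma adjusted p = 1). Its paralogue slc25a3a had 139.6, 117, 132 and 122, with both cold arrays below both normal arrays, so the paralogues had opposite signs in set 1. The aspartate-glutamate carrier gene slc25a12 of the malate-aspartate shuttle had 345, 589, 811 and 742, and its partner in that shuttle, the oxoglutarate carrier gene slc25a11, had 1025, 1029, 992 and 1453. The glycine carrier gene slc25a38b had 566, 899.5, 922 and 859, with normal 1 lowest. The carnitine-acylcarnitine carrier gene slc25a20 had 268, 359, 343 and 358. The gene slc25a39, which has been tied to glutathione import, had 378, 508, 528 and 584. Another probe set of slc25a39 had 135, 163, 109.5 and 101, with the opposite sign in set 2.

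The adenine nucleotide translocator gene slc25a4 exchanges ADP for ATP. Its signals were 87.3, 126, 97.5 and 130.4, so both cold arrays were above both normal arrays, by 1.44-fold and 1.34-fold. The log2 fold change of 0.47 (SE 0.28, limma adjusted p = 1) stayed between 0.39 and 0.55 when any array was left out. The median log2 ratio of skeletal muscle markers was 1.96 and 0.11 in the sets, and that of skin markers 0.21 and 0.41. The part of either list was not tested.

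Of the slc25 genes lower on both cold arrays, slc25a33, for a pyrimidine nucleotide carrier, had 663, 510.1, 584 and 421. Over both labels' arrays the log2 fold change came to -0.43 ± 0.40 (SE, limma adjusted p = 1). The gene slc25a43 had 98.3, 90.8, 101 and 56.4, with cold 2 alone far down and under the mean signal at the filter (log2 fold change -0.48, SE 0.31, limma adjusted p = 1). The value was -0.13 without cold 2. The gene slc25a14, for an uncoupling protein homologue, gave no single answer. Its chosen probe set, of a type that can detect related transcripts, had 111, 66.1, 63.5 and 98.0, and another had 63.4, 89.9, 97.8 and 55.5, with the opposite signs.

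Ion exchangers and cotransporters held 17 genes, of which 10 were tested. None of the 10 differed by 2-fold within a set, and the set medians of the log2 ratio were -0.15 and 0.17. Lower in set 1 and higher in set 2 were 6 of 10, against 32.8% of all probe sets. The labelled median was 0.01, and it was -0.24 without cold 2 and 0.13 without cold 1. The sodium-proton exchanger gene slc9a7, whose product works in the trans-Golgi network, had signals of 1108, 1054, 1506 and 2159. Both arrays of set 2 were above both arrays of set 1 there, as they were at slc24a4a, which encodes a potassium-dependent sodium-calcium exchanger, with 661, 585, 864 and 746. The log2 fold change of slc24a4a was -0.19 (SE 0.41, limma adjusted p = 1), and it was 0.00 without normal 2, -0.02 without cold 1 and -0.39 without normal 1. The potassium-chloride cotransporter gene slc12a7b had 98.3, 74.9, 132 and 149.9, the same split by set, and slc12a4 had 118, 89.0, 104 and 115.

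Anion exchangers and bicarbonate carriers govern pH together. The chloride-bicarbonate exchanger gene slc4a2a had 224, 185, 159 and 195 at its chosen probe set, and a second probe set above the filter had the opposite signs, with 60, 83.6, 97.8 and 83.1. The gene slc26a5, which encodes prestin, had 109.6, 101, 111 and 155. The sulfate carrier gene slc26a2 had 47.2, 67.0, 122 and 87.8, again with set 2 above set 1. Both arrays of set 1 lay under the mean signal at the filter there. The sodium-bicarbonate cotransporter gene slc4a4b lay below the filter, with signals between 58.6 and 89.7. The symbol slc4a1ap, with 117, 81.2, 98.7 and 109.5, stands for an adaptor protein of an exchanger and not for a carrier.

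Metal ion carriers were the group with the fewest dim genes, 13 of 14 being tested. The set medians of their log2 ratio were 0.04 and 0.28. None of the 13 differed by 2-fold within a set, where 8.79% of all probe sets were higher and 5.13% lower in set 1. In set 2 these shares were 2.23% and 4.0%. The labelled median was 0.07, and it was 0.28 without cold 1 and 0.00 without normal 1. The zinc importers slc39a6 and slc39a7 release or admit zinc to the cytosol. The signals of slc39a7 were 348, 422, 388 and 556, with both cold arrays above both normal arrays. The labelled fit gave a log2 fold change of 0.40 ± 0.40 (SE, limma adjusted p = 1), but a further probe set had 430.3, 310.4, 208 and 376, and its order in set 1 was the reverse. At slc39a6 they were 404, 220.3, 345 and 504. Zinc exporters of the secretory pathway were split, since slc30a6 had 357, 649, 598 and 388 and slc30a7 had 376, 205, 255 and 309. At slc30a9 the chosen probe set had 211, 391, 445 and 378, whereas another probe set of the gene had 84.5, 80.5, 77.9 and 75.

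Iron and copper carriers differed by less than 2-fold within a set at their chosen probe sets. The iron importer gene slc11a2 (DMT1) had 234, 242, 236 and 286, and the iron exporter gene slc40a1 (ferroportin) had 194, 234, 242 and 268. The copper importer gene slc31a1 had 511, 577, 487 and 503. Another probe set of slc31a1 had 146, 72.5, 141 and 113, with log2 ratios of -1.01 and -0.32, opposite in sign to the chosen one (0.17 and 0.05). Mitoferrin (slc25a37), the iron carrier of mitochondria in developing red cells, lay below the filter, with signals between 43.1 and 62.0.

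Among the 32 genes of other families, 15 were tested, with set medians of -0.15 and 0.14 for the log2 ratio. The monocarboxylate carrier genes slc16a3b, slc16a9a and slc16a9b had opposite signs in the sets, as slc3a2b did. All were among the genes named for opposite ratios, so this follows from the choice. Lower in set 1 and higher in set 2 were 46.7% of the tested genes of other families, against 32.8% of all probe sets. The lactate exporter gene slc16a3b (MCT4) had signals of 599.9, 281, 482 and 1177, which is 0.468-fold in set 1 and 2.44-fold in set 2. The paralogues slc16a9a and slc16a9b shared these signs, with 181, 94.8, 88.7 and 187 and with 711, 401, 211 and 499.9. The labelled log2 fold changes of these genes were 0.10, 0.07 and 0.21, with standard errors of 0.69, 0.49 and 0.62. The gene bsg encodes basigin, the chaperone that takes such carriers to the membrane, and its signals of 5114, 5649.9, 5423 and 5479 did not share those signs, with log2 ratios of 0.14 and 0.01. The lactate carrier gene slc16a1b lay below the filter, between 27.4 and 35.4.

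Phosphate carriers of the plasma membrane diverged between paralogues. The gene slc20a1b had 869.5, 308, 422 and 885, or 0.354-fold in set 1 and 2.1-fold in set 2. Its paralogue slc20a1a stayed between 72.1 and 81.1, close to the mean signal of 74.5 at the filter. The related slc20a2 was lower on the cold array of both sets, with 87.1, 60.4, 103 and 86.1, and cold 1 lay under the mean signal at the filter. Over both labels' arrays the log2 fold change came to -0.39 ± 0.29 (SE, limma adjusted p = 1). The fatty acid carrier gene slc27a1a had 51.4, 94.2, 129 and 80.9, in the order of slc38a2. The heme carrier gene slc48a1b had 411, 390.3, 313 and 283, with set 1 above set 2. The dicarboxylate carrier gene slc13a2 had 94.9, 50.2, 70.2 and 108, with the signs of slc20a1b. At slc27a1a the lowest array also lay under the mean signal at the filter, and at slc13a2 both cold 1 and normal 2 did.

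**Figure D4:**
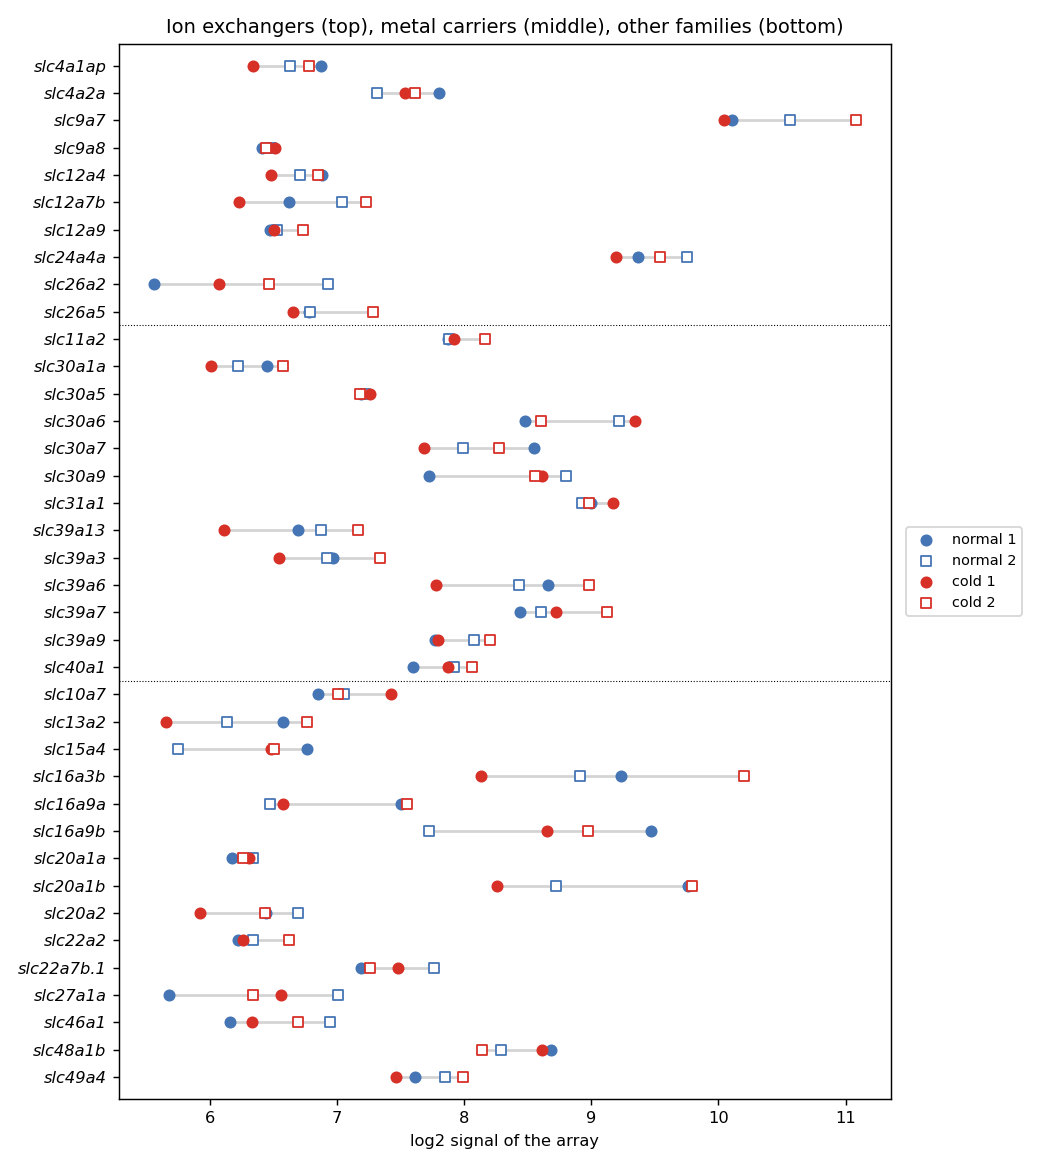
Log2 signal (x axis) of the 10 tested ion exchangers and cotransporters (top), 13 metal carriers (middle) and 15 genes of other families (bottom), 1 row per gene and 1 symbol per array, blue for normal and red for cold, filled circles for set 1 and open squares for set 2. The widest rows are slc16a3b, slc16a9b and slc20a1b, and both cold arrays lie above both normal arrays at slc11a2 and slc39a7 and below them at slc20a2.

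**Figure D5:**
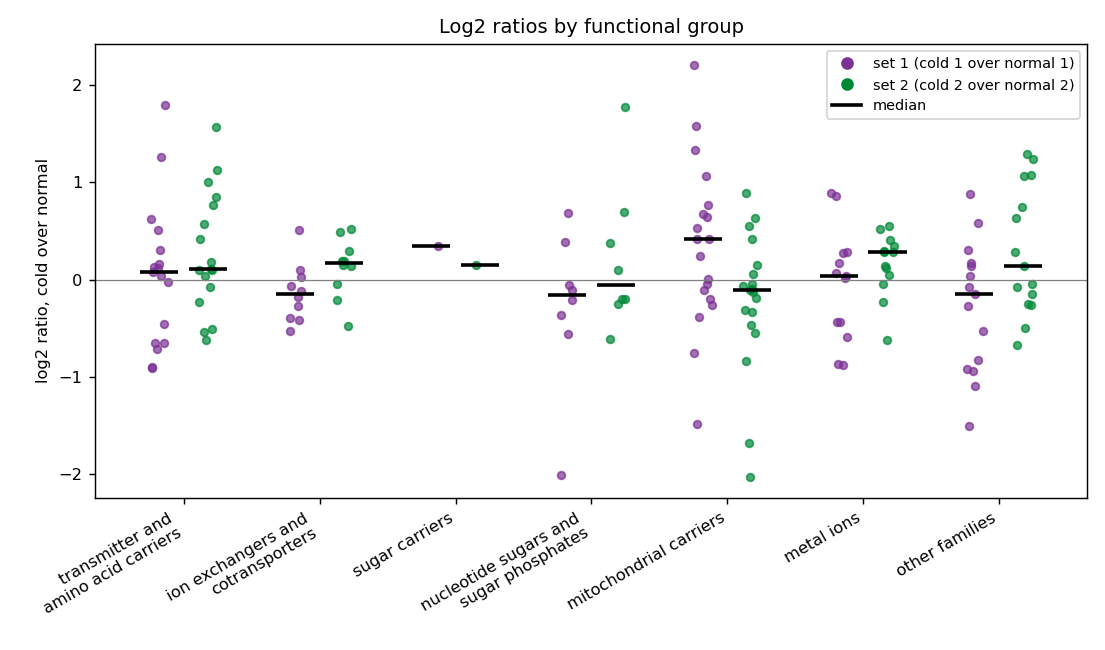
Log2 ratio of cold over normal (y axis) for each tested carrier gene by functional group, purple for set 1 and green for set 2, with a bar at the median. The median of mitochondrial carriers is 0.42 in set 1 and -0.11 in set 2, and that of ion exchangers is -0.15 and 0.17.

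Counted over all groups, both cold arrays were above both normal arrays at 7 of 83 genes (8.43%, against 9.20% of all probe sets) and below at 6 (7.23%, against 6.45%). These shares are near the background. The 7 were slc6a17, slc2a3a, slc11a2, slc39a7, slc25a4, slc25a11 and slc25a20. The labels overlapped at a further tested probe set of slc25a11 (668, 649, 503 and 597) and at that of slc39a7. The 6 were slc35b4, slc20a2, slc25a3a, slc25a33, slc25a43 and slc25a44b. The slc25 family gave 3 of the higher genes (15.8% of its 19, against 9.20%) and 4 of the lower (21.1%, against 6.45%).

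The other 53 genes lay below the filter, 17 of them in other families, 11 among transmitter and amino acid carriers, 8 among sugar carriers, 7 among ion exchangers, 6 in the slc25 family, 3 among nucleotide sugar carriers and 1 among metal carriers. Their signals ran from 1.56 to 99.0, with a median of 36.9, and no test was made of them. Of the 136 genes, 18 had more than 1 probe set.

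Enzymes, pumps and channels that work with the carriers were followed as a list of 76 genes, of which 44 were on the array and 32 were tested. In the labelled fit 0 were higher and 0 lower at an adjusted p under 0.05 from limma. In set 1, 6 of the 32 were at least 2-fold higher and 1 lower, against 8.79% and 5.13% of all probe sets. The 6 were glulb, gad2, aqp1a.1, ca2, cahz and nherf1a. The red blood cell markers above also hold cahz and the astroglial markers glula and glulb, and their part was not tested. In set 2, 0 were higher and 2 lower, against 2.23% and 4.0%, and the set medians of the log2 ratio were 0.23 and -0.08. The glutamate decarboxylase genes gad1b and gad2 make GABA, the cargo of the slc32a1 carrier. Their signals were 1271, 2444, 2463 and 1933 and 1387, 2924, 2235 and 1641, with normal 1 lowest as at slc32a1. The glutamine synthetase gene glulb, which recycles glutamate taken up by glia, had 670.2, 1416, 1513 and 851, while glula had 4211, 5097, 4972 and 4686.

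The sodium-potassium ATPase keeps up the sodium gradient that many carriers draw on. The signals of its subunit gene atp1a1b were 1971, 3009, 3205 and 3474, in the order of slc1a2b, and those of atp1a3b were 918, 1259, 775 and 1098, with both cold arrays above both normal arrays. Other tested subunit genes differed in direction. Both cold arrays were above both normal arrays at atp1b2a too, but below them at atp1b1a and atp1b3b. Of all probe sets tested, 9.20% had both cold arrays above and 6.45% had them below. The labels overlapped at atp1a3a, atp1b1b and atp1b3a. The voltage-dependent anion channel gene vdac1, the outer membrane pore that metabolites cross before they meet slc25 carriers, had 3433, 3584, 3479.7 and 4119.7. Its paralogues vdac2, with 2797, 1665, 1963 and 2092, and vdac3, with 689, 688, 483 and 603, had overlapping labels. The uncoupling protein gene ucp2, an slc25 protein under another symbol, had 546, 307, 356 and 673, with the signs of slc25a25a. Its labelled log2 fold change was 0.04 with a standard error of 0.52. The gene ucp1, likewise of the slc25 family, had 765, 857, 1634 and 1751. Its log2 ratios were 0.16 and 0.10, so the sign of slc25a25a in set 1 was not shared.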

How the data were processed

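Brain RNA of normal and cold zebrafish was hybridized to Affymetrix Zebrafish Genome Arrays. The authors deposited 1 linear signal intensity per probe set and array, made and scaled with Affymetrix software (MAS5 per the submitters' processing notes). No version, scaling target or detection call is given in the sources used here. The median signal was between 96.3 and 102 on the 4 arrays, and their number limits the precision.

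Intensities were converted to log2 without further normalization or pseudocount. Of 15502 probe sets that are not controls, 10795 had 1 gene symbol, 135 several and 4572 none in the platform annotation. All 136 carrier symbols were found in the current gene table. Probe sets whose mean log2 signal reached the 40th percentile (6.22, a signal of 74.5) were tested (9301). Groups came from the labels, and cold was compared with normal with limma 3.58.1 in R 4.3.3, unpaired, with a variance trend and Benjamini-Hochberg adjustment over all 9301 probe sets. The script was tested on simulated data. The study's methods name SAM, and limma was used in its place. The study's methods describe RNA from several acclimation experiments, of which 2 arrays per label were analysed here. The labels do not tie an array to an experiment, so p-values measure only the spread between these arrays.

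Functional groups follow the family number, except that family 5 was split by gene, with slc5a12 and slc5a6b in other families and slc5a8l, which that split did not list, among sugar carriers. Named genes were the 4 with the highest mean signal per group, the 10 with the smallest p, the 12 with the largest opposite ratios in the sets, up to 8 with the same sign in both sets, and known brain carriers. Genes with the smallest p or the same sign are given with the limma test, and any others named were picked with their values in view. Members and lists were chosen with earlier results of these data known. Alternatives were quantile normalization, median centring, a pseudocount of 16, the 60th percentile as the filter or none, a variance prior without trend, a replicate block, the mean over a gene's probe sets, and leaving out each array.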

Additional observations from a re-analysis of the deposited data

How the results depend on the processing

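With 2 arrays per label, no carrier gene passed the limma threshold in any fit of all 4 arrays, and these arrays cannot show small differences. The wide spread between arrays of a label also enters the standard errors. In the labelled fit, log2 fold changes of all probe sets ran from -1.54 to 2.49 and none was called, so large differences went uncalled too. Over all probe sets the count was 0 in each direction, also with the replicate number as a block (0 called under the replicate block). Deviations of same-numbered arrays from their label means correlated at -0.295 (with 2 arrays per label both pairs give the same value), so the numbers were not used to pair arrays. A block on the crossed pairing, chosen after seeing the data, called 1 probe set higher and 0 lower, and 0 carriers. The median log2 fold change of transmitter and amino acid carriers (0.11) was 0.07 after quantile normalization, 0.08 without the filter and 0.16 with the filter at the 60th percentile. The sugar carrier median (0.25, from 1 gene) was -0.10 over the 9 genes without the filter, and -0.04 without slc5a8l as well, a change also chosen after seeing the data. The mitochondrial median (0.09) was 0.28 at the 60th percentile and -0.02 with a pseudocount of 16, and that of all carriers (0.05) was 0.11 at the 60th percentile. The cause was not tested, except that the filters change which genes enter.

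When each array was left out in turn, the median of all tested carriers (0.05) ran from -0.02 to 0.23, that of transmitter and amino acid carriers from 0.02 to 0.29, and that of ion exchangers (0.01) from -0.24 to 0.13. Nucleotide sugar carriers (-0.06) ran from -0.13 to 0.06, metal carriers (0.07) from 0.00 to 0.28, other families (0.03) from -0.06 to 0.24 and mitochondrial carriers (0.09) from 0.00 to 0.42. Without normal 1 the log2 fold change of slc1a2b (0.40) was -0.12 and that of slc1a4 (0.63) was -0.20, the lowest of ranges that reached 0.91 and 1.46. The other 50 of 52 leave-one-out values of single genes kept their sign, although slc24a4a (-0.19) came to 0.00 without normal 2. All 87 under the other alternatives kept their sign and side of the threshold. The filter, variance and block settings cannot change a gene's log2 fold change, so only quantile normalization, median centring and the pseudocount could move it. No carrier was near the threshold in the labelled fit, so its side was unlikely to change.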
